A study of Mus musculus with 6 samples.

Results

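Collagen chain genes were followed in endothelial cells from mouse glioma and from normal mouse brain. Members were all gene symbols made of Col, a number, the letter a and a number, such as Col4a1, and 44 of the 24421 symbols in the deposited files fitted this form. By the structure of the proteins they fall into 8 basement membrane collagens (types IV, XV and XVIII), 11 fibrillar collagens (types I, II, III, V, XI, XXIV and XXVII) and 25 other collagens.

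The glioma group held 3 libraries of sorted endothelial cells (EC), taken 3 weeks after an orthotopic, intracranial injection of GL26l glioma cells into mice of the congenic B6 background. The normal group held 3 libraries of EC sorted from brain without a tumor. All libraries came from the strain C57BL/6. The labels give neither sex nor age, neither the marker used for the sort nor the number of animals behind each RNA set, so p-values measure only the spread between these samples, which may be technical. The design text calls the RNA sets independent and sets tumor vessels against brain vessels, and the comparison here asks which collagen genes differ between them.

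Groups and replicate numbers follow the sample titles, and the column headers in the files do not all match them. The headers of glioma replicates 2 and 3 call these libraries controls, and that of glioma replicate 3 does not name glioma. The headers of normal replicates 2 and 3 carry the numbers 1 and 2. What these headers refer to is not stated, and each comparison rests on the titles.

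Collagens are secreted proteins in which 3 chains wind into a triple helix. In a basement membrane, the thin sheet of matrix under the endothelium, type IV collagen forms a network that is linked to laminin, nidogen and perlecan. The most widespread type IV molecule is built from the chains of Col4a1 and Col4a2. Fibrillar collagens form the tension-bearing fibrils of connective tissue and are made mainly by fibroblasts, which are sparse in normal brain outside the meninges and the walls of larger vessels.

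Values are the deposited log2 values, read as log2(x + 1) of values normalized to the same distribution in all libraries. Libraries were made with a QuantSeq kit, which reads the 3′ end of a transcript, so levels of different genes can be compared without a correction for gene length. Sequencing depth is unknown. A gene without a value is listed at 0, and the lowest value above 0 was 0.42, 3.82 and 5.22 in glioma replicates 1, 2 and 3, against 7.43, 2.84 and 0.22 in normal replicates 1, 2 and 3. A gene listed at 0 in normal replicate 1 could therefore have stood anywhere below 7.43.

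All 15 endothelial markers were above 0 in every library, led by Egfl7, a secreted endothelial factor, and Pecam1, an adhesion molecule. Their summed share of a library's back-transformed values was 1.44% to 2.68% in glioma and 2.70% to 3.42% in normal libraries. Normal replicates 2 and 3 resembled each other most (Pearson's r = 0.97 across the 5880 genes above 0 in all libraries), while normal replicate 1 correlated with them at 0.58 and 0.60. In a limma fit over 11862 genes, with Benjamini-Hochberg adjustment, 0 genes passed an adjusted p of 0.05 and 509 reached an unadjusted p under 0.05, 4.29% of those tested. Number codes that look like dates are shared by replicates 2 and 3 within each group and by no library across the groups, so such a batch and the group cannot be told apart.

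Few collagen genes were detected throughout. Col4a1, Col4a2 and Col18a1 were the 3 members above 0 in all 6 libraries. The members above 0 numbered 34, 19 and 10 in glioma replicates 1, 2 and 3, and 10, 16 and 22 in normal replicates 1, 2 and 3. Of all 24421 symbols, 13108, 10954 and 10013 were above 0 in the glioma libraries, and 7446, 11853 and 13072 in the normal libraries. Col6a5, Col10a1, Col20a1, Col24a1 and Col28a1 were listed at 0 in every library. Another 10 members were above 0 in at least 1 glioma library and in no normal library, and 3 members were above 0 in at least 1 normal library and in no glioma library. Of the 10, 6 had a value in glioma replicate 1 alone, the library with the most members and the most symbols above 0. Shares over all symbols were not taken for these presence counts, so they describe detection and are not a result about collagens.

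**Figure D1:**
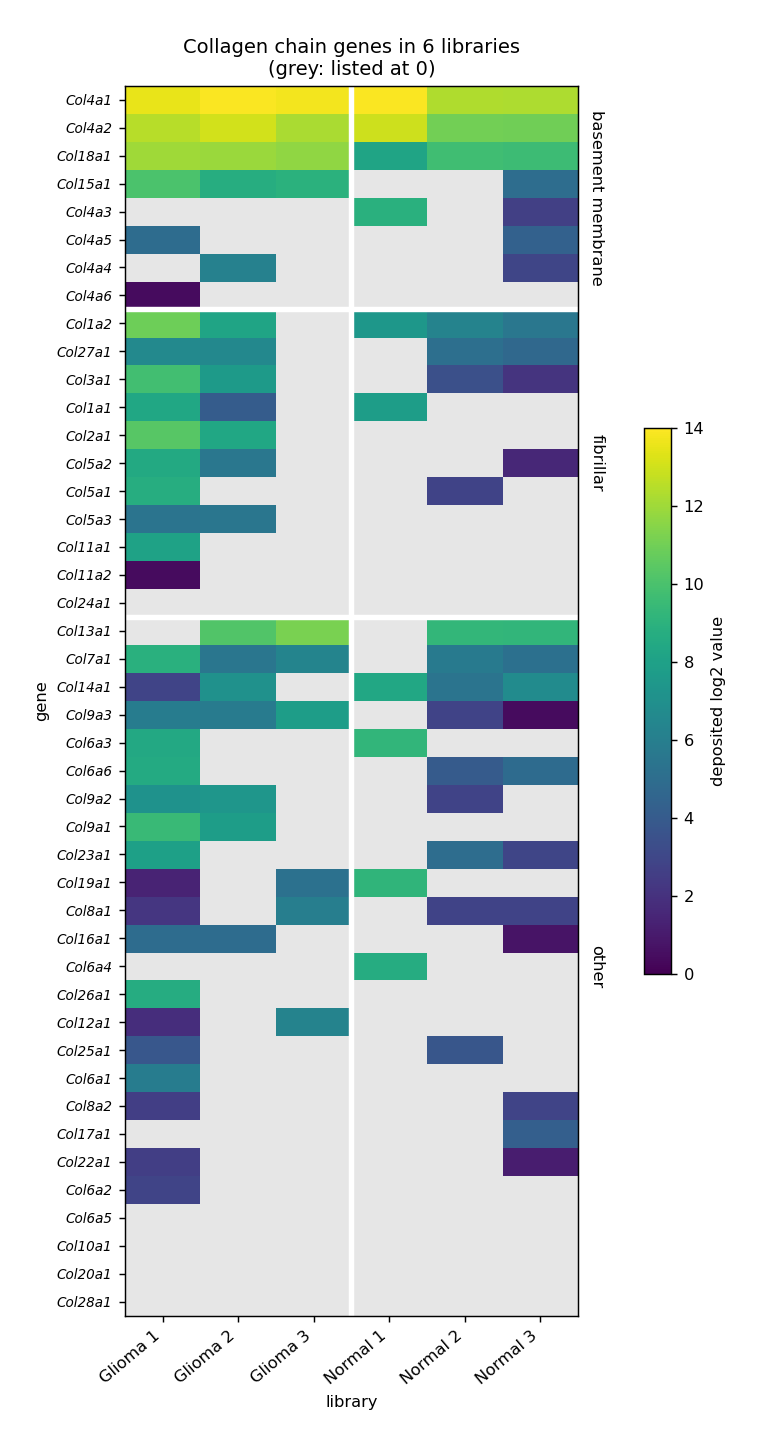
Deposited log2 value of the 44 collagen genes (rows, by class and falling mean) in the 3 glioma and 3 normal libraries (columns), with grey for genes listed at 0. Col4a1, Col4a2 and Col18a1 have a value in every library, and glioma replicate 1 has values for 34 of 44 genes.

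A test was run for 18 members, those whose back-transformed value reached 1 in 3 or more libraries, namely 4 basement membrane, 5 fibrillar and 9 other collagens. A member can pass this filter through the group in which it is high, as Col15a1 and Col9a3 did through their glioma libraries. Of the 18, 0 passed an adjusted p of 0.05 in limma, as did 0% of all tested genes, and 0 did so without a trend in the variance prior, where 0.126% of all genes passed. An unadjusted p under 0.05 was reached by 3 members, Col18a1, Col15a1 and Col9a3, all higher in glioma, beside 2.35% of all tested genes in that direction. The same 3 members had glioma libraries wholly above the normal libraries, beside 6.91% of all tested genes, and 0 members had them wholly below, beside 6.37%. The difference, glioma minus normal, was above 0 for 14 of the 18, beside 51.4% of all tested genes.

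Single libraries moved these counts. Without glioma replicate 3, 8 of the 18 members were wholly above (12.4% of all tested genes) and 5 were at an unadjusted p under 0.05 (4.06%). Without normal replicate 1, 5 were wholly above (14.7%) and 5 were at an unadjusted p under 0.05 (10.2%). Without glioma replicate 2, 1 member was wholly below (10.7%). With replicates 2 and 3 of each group alone, 6 were wholly above (24.6%), 2 wholly below (30.9%) and 8 at an unadjusted p under 0.05 (20.6%). With all values below 7.43 raised to 7.43, a floor shared by all libraries, Col15a1 and Col18a1 were the 2 members wholly above (4.75%) and at an unadjusted p under 0.05 (4.7%). Among genes above 0 in all 6 libraries this held for Col18a1 alone (5.05% and 6.02%), and with the replicate number as a block 2 members were at an unadjusted p under 0.05 (5.14%).

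Type IV collagen was the most abundant collagen in every library. Col4a1, which encodes the α1 chain, had log2 values of 13.52, 13.90 and 13.75 in glioma replicates 1, 2 and 3, and 13.90, 12.33 and 12.26 in normal replicates 1, 2 and 3. Its rank among all 24421 symbols was 173, 114 and 135 in the glioma libraries and 114, 541 and 569 in the normal libraries. The glioma libraries and normal replicate 1 were thus alike in level, and normal replicates 2 and 3 were lower. Means were 13.72 ± 0.19 in glioma and 12.83 ± 0.93 in normal libraries (SD, n = 3 each), a log2 difference of 0.89 (SE 0.55, limma adjusted p = 0.875).

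Col4a2, which encodes the α2 chain, likewise had its lowest values in normal replicates 2 and 3. It had log2 values of 12.49, 13.03 and 12.20 in glioma replicates 1, 2 and 3, and 12.95, 11.03 and 10.98 in normal replicates 1, 2 and 3. Again the groups overlapped through normal replicate 1, which lay above glioma replicates 1 and 3. The difference was 0.92 (SE 0.61, limma adjusted p = 0.875). Without normal replicate 1 the differences were 1.43 for Col4a1 (SE 0.42, limma adjusted p = 0.403) and 1.57 for Col4a2 (SE 0.43, limma adjusted p = 0.402), and every glioma value of both genes then exceeded every normal value. Col4a1 exceeded Col4a2 in each library, by 1.03, 0.87 and 1.55 on the log2 scale in the glioma libraries and by 0.96, 1.31 and 1.28 in the normal libraries. As ratios of back-transformed levels, these are 2.04, 1.83 and 2.92 in glioma and 1.94, 2.47 and 2.43 in normal libraries, so the balance of both chains overlapped between the groups.

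Col4a1 and Col4a2 lie head to head on chromosome 8 (mm10, GENCODE M21), with Col4a1 on the minus strand at chr8:11198423-11312826 and Col4a2 on the plus strand at chr8:11312805-11449287. Their annotated transcripts overlap by 22 bases at the 5′ ends, far from the 3′ ends that QuantSeq reads. The promoter windows of these genes are shown because both genes had their lowest values in the same libraries, and those of Col18a1 and Col15a1 because their glioma and normal libraries did not overlap. Each window runs from 250 bases before to 50 bases after the annotated start (RefSeq, GRCm38.p6, 5′ to 3′ on the gene's strand), and capitals mark matches to the GC box GGGCGG and to the CCAAT box on either strand.
Col4a1, chr8:11312777-11313076, minus strand: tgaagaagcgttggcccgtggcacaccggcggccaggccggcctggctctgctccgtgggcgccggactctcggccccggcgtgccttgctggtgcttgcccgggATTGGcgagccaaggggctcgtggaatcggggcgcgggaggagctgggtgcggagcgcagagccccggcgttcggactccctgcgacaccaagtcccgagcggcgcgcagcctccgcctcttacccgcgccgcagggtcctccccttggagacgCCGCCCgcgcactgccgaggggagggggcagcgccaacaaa
Col4a2, chr8:11312555-11312854, plus strand: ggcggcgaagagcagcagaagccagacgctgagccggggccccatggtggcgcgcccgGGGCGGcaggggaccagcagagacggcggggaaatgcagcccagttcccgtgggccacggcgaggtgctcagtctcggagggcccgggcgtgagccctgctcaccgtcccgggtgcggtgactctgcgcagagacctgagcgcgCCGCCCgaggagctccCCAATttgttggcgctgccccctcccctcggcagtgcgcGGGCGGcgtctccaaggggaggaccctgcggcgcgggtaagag
Col18a1, upstream start, chr10:77166481-77166780, minus strand: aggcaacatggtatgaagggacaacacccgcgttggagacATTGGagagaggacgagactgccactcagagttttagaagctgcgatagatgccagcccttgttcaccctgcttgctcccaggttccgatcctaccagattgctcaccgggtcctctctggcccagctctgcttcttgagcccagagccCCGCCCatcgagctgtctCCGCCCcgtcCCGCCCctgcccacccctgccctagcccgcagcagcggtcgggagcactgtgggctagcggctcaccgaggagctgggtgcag
Col18a1, downstream start, chr10:77113656-77113955, minus strand: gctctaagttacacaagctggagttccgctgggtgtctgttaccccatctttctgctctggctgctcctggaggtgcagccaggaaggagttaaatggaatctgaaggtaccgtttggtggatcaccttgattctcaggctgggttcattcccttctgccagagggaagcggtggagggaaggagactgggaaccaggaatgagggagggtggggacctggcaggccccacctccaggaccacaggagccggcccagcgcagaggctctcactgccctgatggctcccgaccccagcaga
Col15a1, chr4:47207762-47208061, plus strand: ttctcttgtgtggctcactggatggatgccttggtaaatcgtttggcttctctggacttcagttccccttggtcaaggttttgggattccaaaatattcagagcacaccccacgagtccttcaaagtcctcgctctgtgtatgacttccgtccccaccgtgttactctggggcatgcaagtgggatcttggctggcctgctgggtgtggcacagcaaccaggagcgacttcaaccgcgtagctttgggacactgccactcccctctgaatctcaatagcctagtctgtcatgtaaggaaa

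The windows of Col4a1 and Col4a2 share 78 bases, and 1 GC box at chr8:11312812-11312817 lies within them. The Col4a1 window held 1 GC box and 1 CCAAT box, and the Col4a2 window held 3 GC boxes and 1 CCAAT box. The upstream window of Col18a1 held 3 GC boxes and 1 CCAAT box. The downstream window of Col18a1 and the window of Col15a1 held neither. No match to TATAAA was found in these 5 windows. Among all 32851 windows of the same length, 35.7% held a GC box, 37.4% a CCAAT box and 13.6% TATAAA on either strand. The GC content was 74.0% and 73.7% in the Col4a1 and Col4a2 windows, 63.3% and 59.7% in those of Col18a1 and 52.3% in that of Col15a1, against a median of 52.7% over all windows. Windows were found for 35 of the 44 members, and a GC box was in 23 of their 38 windows. A match describes the letters of a window and is not a bound site.

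Col18a1 had the smallest p of all members. This gene encodes the chain of type XVIII collagen, a basement membrane proteoglycan whose end fragment is endostatin, and lies at chr10:77052178-77166548. It had log2 values of 12.02, 11.87 and 11.70 in glioma replicates 1, 2 and 3, and 8.17, 9.71 and 9.60 in normal replicates 1, 2 and 3. Every glioma library lay above every normal library, and normal replicate 1, where Col4a1 and Col4a2 were at the level of the glioma libraries, had the lowest Col18a1 value. The rank of Col18a1 was 694, 797 and 906 in the glioma libraries and 6124, 3340 and 3531 in the normal libraries. The difference was 2.70 (SE 0.57, limma unadjusted p = 0.00124, adjusted p = 0.875). Without normal replicate 1 it was 2.21 (SE 0.38, limma adjusted p = 0.395), and it stayed between 2.21 and 2.98 with each library left out in turn.

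Col18a1 is annotated with starts that lie 52825 bases apart, and counts at the 3′ end do not tell which start was used. Its 3′ part overlaps Slc19a1, a folate carrier on the opposite strand, over 8825 bases at chr10:77052178-77061002. Whether the authors' counting used strand is not stated, so reads of the overlap cannot be assigned with certainty. Slc19a1 itself had log2 values of 8.75, 8.36 and 11.32 in the glioma libraries and 0, 9.33 and 9.78 in the normal libraries. It lay below Col18a1 in each glioma library, closest to it in glioma replicate 3, and above it in normal replicate 3.

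Col15a1, which encodes the closely related type XV collagen (chr4:47208161-47313167), showed the largest difference of the 18 tested members. It had log2 values of 10.04, 8.72 and 8.96 in glioma replicates 1, 2 and 3, and 0, 0 and 4.98 in normal replicates 1, 2 and 3. All glioma values lay above all normal values, and also above 7.43, the lowest value that normal replicate 1 could show. The difference was 7.58 (SE 2.39, limma unadjusted p = 0.0119, adjusted p = 0.875), and its size includes the step up from 0 to the smallest value that a library can hold. With the shared floor it was 1.81 (SE 0.59, limma adjusted p = 0.76), and with each library left out in turn it was between 6.75 and 9.24. Col15a1 met the filter through its glioma libraries, and its normal libraries alone would not have met it. Neither its p-value nor the gap between its groups is therefore support for a difference.

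The remaining type IV chains were seen in few libraries. They form the specialized networks of the kidney filter, the lung and some epithelia. Col4a3 was listed at 0 in all 3 glioma libraries and at 8.89, 0 and 2.66 in the normal libraries. Col4a4 was at 0, 6.13 and 0 in glioma and at 0, 0 and 2.91 in normal libraries. Col4a5 was at 4.97, 0 and 0 in glioma and at 0, 0 and 4.36 in normal libraries, and Col4a6 had 1 value above 0, of 0.42, in glioma replicate 1. These genes form head-to-head pairs too, with 71 bases between Col4a4 and Col4a3 on chromosome 1 and 1308 bases between Col4a6 and Col4a5 on chromosome X. In normal replicate 3 both members of the Col4a3 and Col4a4 pair were above 0, and in no library were both Col4a5 and Col4a6 above 0 except glioma replicate 1.

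**Figure D2:**
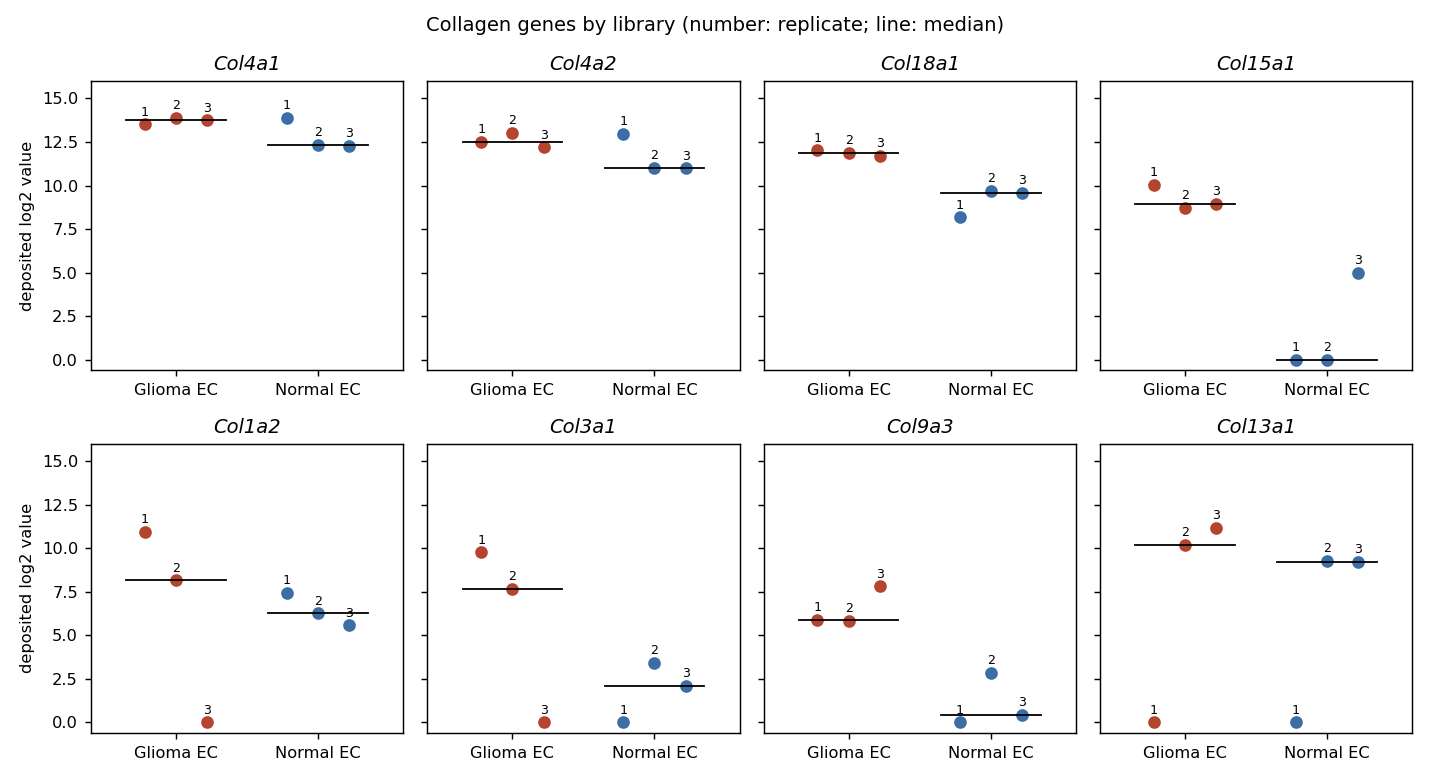
Deposited log2 value of 8 collagen genes in each library (points, numbered by replicate), glioma EC left and normal EC right, with the median as a line. The groups do not overlap for Col18a1, Col15a1 and Col9a3. For Col4a1 and Col4a2 normal replicate 1 lies among the glioma libraries, and Col13a1 is at 0 in replicate 1 of each group.

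Summed over the whole family, collagens took 0.184%, 0.181% and 0.147% of the back-transformed values in glioma replicates 1, 2 and 3, and 0.157%, 0.0528% and 0.0507% in normal replicates 1, 2 and 3. Normal replicate 1 thus lay within the range of the glioma libraries. Col4a1 and Col4a2 together made up 56.1%, 77.0% and 73.7% of the summed collagen values in the glioma libraries, against 88.4%, 80.6% and 80.1% in the normal libraries. Col18a1 made up 13.2%, 12.2% and 13.3% in glioma and 1.09%, 9.33% and 8.99% in normal libraries. The other 41 genes made up 30.7% in glioma replicate 1 and 10.8% and 13.0% in glioma replicates 2 and 3, against 10.5%, 10.1% and 10.9% in the normal libraries. The share of the type IV pair was thus lower, and that of Col18a1 higher, in each glioma library than in each normal library, which is a description of these 6 libraries and was not tested.

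**Figure D3:**
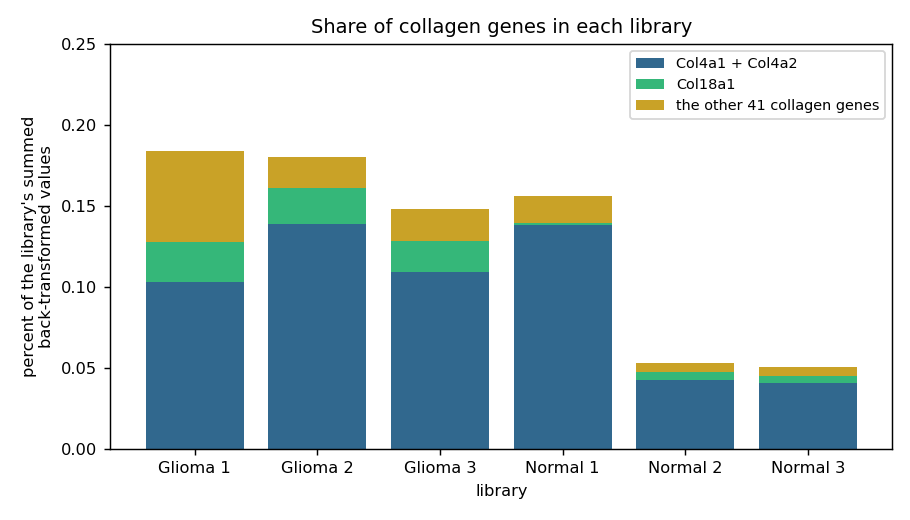
Summed back-transformed values of collagen genes as a percent of each library's total (bars from 0), split into Col4a1 with Col4a2, Col18a1 and the other 41 genes. The glioma libraries reach 0.147% to 0.184%, normal replicate 1 reaches 0.157%, and normal replicates 2 and 3 reach 0.0528% and 0.0507%.

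Pericytes and smooth muscle cells, the mural cells of vessels, also make basement membrane. Of 14 mural markers, 11, 13 and 11 were above 0 in glioma replicates 1, 2 and 3, and 11, 13 and 14 in normal replicates 1, 2 and 3. Their summed share was 0.0616% to 0.112% in glioma and 0.0431% to 0.132% in normal libraries, and was highest in normal replicate 1. By the mean log2 value over all libraries, the highest mural markers were Rgs5, a regulator of G protein signalling, at 12.43, 12.21 and 10.03 in glioma and 13.47, 9.56 and 11.04 in normal libraries, and Abcc9, a potassium channel subunit. Of the 14 mural markers, all tested, 5 had a difference above 0 and 9 below, with a median of -0.4. None passed the limma test, and 0 were wholly above and 2 wholly below, beside 6.91% and 6.37% of all tested genes. At a limma unadjusted p under 0.05, 1 was lower in glioma, beside 1.94%. The part of mural cells in the collagen values was not tested. In such bulk samples, fewer cells of a type and less RNA per cell cannot be told apart.

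Markers of glioma cells or neural progenitors were also set beside the collagens. Of 8 such markers, 8, 6 and 5 were above 0 in glioma replicates 1, 2 and 3, and 4, 3 and 5 in normal replicates 1, 2 and 3. Their summed share was 0.107% to 0.289% in glioma and 0.0893% to 0.336% in normal libraries, and its largest parts were Prom1 and Vim, which endothelium also expresses. Prom1 was at 13.59, 14.82 and 14.54 in glioma and at 13.48, 15.65 and 15.52 in normal libraries. Vim was at 11.94, 13.62 and 14.39 in glioma and at 10.42, 12.16 and 11.89 in normal libraries. Nes was at 9.53, 10.32 and 10.33 in glioma and at 10.16, 10.39 and 10.73 in normal libraries. Sox2, a transcription factor of neural stem cells, was at 7.92, 5.53 and 8.47 in glioma and at 0, 0 and 1.22 in normal libraries. Its glioma libraries lay wholly above, as for Col18a1, Col15a1 and Col9a3, although the value in glioma replicate 2 is under 7.43. Sox2 met the filter through its glioma libraries, so this gap is no support for a difference. Olig2, a factor of the glial lineage, was at 3.12, 5.82 and 0 in glioma and at 0 in all 3 normal libraries. Of the 5 tested markers of this list, 0 passed the limma test. At an unadjusted p under 0.05, 2 were higher in glioma, and 1 was wholly above, beside 2.35% and 6.91% of all tested genes. The difference was above 0 for 3 of the 5 and below 0 for 2. Sox2, Olig2 and Nes were named after their values were seen, and the part of tumor cells in the collagen values was not tested.

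Fibrillar collagens were uneven among the glioma libraries. Of 11 members, 10, 7 and 0 were above 0 in glioma replicates 1, 2 and 3, and 2, 4 and 4 in normal replicates 1, 2 and 3. Their summed share was 0.0331%, 0.00592% and 0% of the back-transformed values in the glioma libraries, and 0.00235%, 0.000735% and 0.000458% in the normal libraries. Of the 10 members with a value anywhere, 9 were highest in glioma replicate 1, and the exception was Col5a3 (5.38 there and 5.47 in glioma replicate 2). The median difference of the 5 tested members was 1.54, against 0.05 over all tested genes. It was -0.02 without glioma replicate 1 and 3.62 without glioma replicate 3. Of the 5, 0 reached a limma unadjusted p under 0.05, beside 4.29% of all tested genes. The groups overlapped for each, beside 6.91% of all tested genes wholly above and 6.37% wholly below. Each of the 5 was at 0 in glioma replicate 3.

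Type I and type III collagen are the main fibril collagens of skin, vessel walls and scar. Col1a2, the α2 chain of type I, had log2 values of 10.93, 8.16 and 0 in glioma replicates 1, 2 and 3, and 7.43, 6.27 and 5.57 in normal replicates 1, 2 and 3. Glioma replicates 1 and 2 lay above all normal libraries, and glioma replicate 3 was at 0, although its lowest value above 0 was 5.22. The difference was -0.06 (SE 2.84, limma adjusted p = 0.996), and it was 1.41 with the shared floor of 7.43 and 3.12 without glioma replicate 3. Col1a1, the α1 chain, stood at 8.36, 4.07 and 0 in glioma and at 7.80, 0 and 0 in normal libraries (difference 1.54, SE 3.09). Col1a1 lay below Col1a2 in both glioma libraries that held a value, and in normal replicates 2 and 3, where it was listed at 0.

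Col3a1, the chain of type III collagen, was at 9.76, 7.65 and 0 in glioma replicates 1, 2 and 3, and at 0, 3.42 and 2.12 in normal replicates 1, 2 and 3. The difference was 3.96 (SE 2.96, limma adjusted p = 0.875). Col5a2, a type V chain that is built into type I fibrils, was at 8.49, 5.53 and 0 in glioma and at 0, 0 and 1.58 in normal libraries (difference 4.15, SE 2.40, limma adjusted p = 0.875). Col27a1, a fibrillar collagen of cartilage, was at 6.59, 6.52 and 0 in glioma and at 0, 5.09 and 4.75 in normal libraries. All of these values share a pattern, present in glioma replicates 1 and 2 and at 0 in glioma replicate 3. Col1a2, Col3a1, Col5a2 and Col27a1 were among the 8 members whose groups stood apart once glioma replicate 3 was left out.

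Fibroblast markers were set beside these values. Of 14 markers, 12, 1 and 2 were above 0 in glioma replicates 1, 2 and 3, and 1, 5 and 9 in normal replicates 1, 2 and 3. Their summed share was 0.00119% to 0.0064% in glioma and 0.000636% to 0.00121% in normal libraries. Dpt, which encodes dermatopontin, was at 0 in every library. Dcn, which encodes decorin, was at 7.30, 0 and 0 in glioma and at 0, 3.92 and 2.91 in normal libraries, and Lum, which encodes lumican, was at 6.85 in glioma replicate 1 and at 0 elsewhere. By the mean log2 value over all libraries, with 0 counted, the highest of the list were Thy1, at 5.60, 0 and 0 in glioma and 7.54, 4.04 and 0.74 in normal libraries, and Pdgfra, which is also a marker of oligodendrocyte precursors, at 8.01, 7.67 and 0 in glioma and 0, 0 and 1.58 in normal libraries. Twist1, a transcription factor named after its values were seen, had the highest single value of the list, at 8.04, 0 and 0 in glioma and 0, 0 and 2.70 in normal libraries. Pi16 and Fap, also named after their values were seen, were highest in normal replicate 2. Pi16 was at 4.37, 0 and 0 in glioma and 0, 6.78 and 5.82 in normal libraries. Fap was at 0.42, 0 and 0 in glioma and 0, 5.94 and 4.45 in normal libraries. Of the 5 tested markers of the list, 3 had a difference above 0 and 2 below. Glioma replicate 2 had 7 fibrillar collagens above 0 with Pdgfra as its only fibroblast marker above 0. The part of fibroblasts in these values was not tested.

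**Figure D4:**
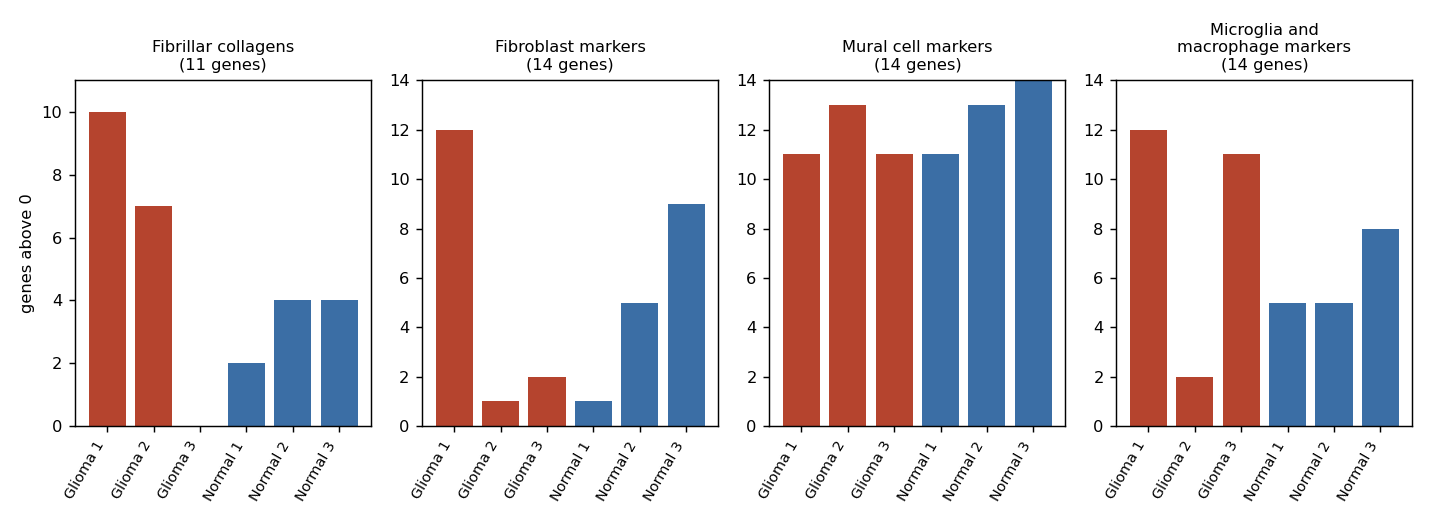
Number of genes above 0 in each library (bars from 0 to the size of the list), glioma left in red and normal right in blue, for fibrillar collagens and for markers of fibroblasts, mural cells, and microglia and macrophages. Glioma replicates 1 and 2 have 10 and 7 fibrillar collagens above 0 and glioma replicate 3 has 0, while fibroblast markers number 12, 1 and 2 in the same libraries.

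Glioma replicate 3, the library without fibrillar collagens, had the highest level of microglia and macrophage markers. Of 14 such markers, 12, 2 and 11 were above 0 in glioma replicates 1, 2 and 3, and 5, 5 and 8 in normal replicates 1, 2 and 3, with summed shares of 0.0015% to 0.0828% in glioma and 0.000745% to 0.0146% in normal libraries. By the mean log2 value over all libraries, with 0 counted, the highest were Cx3cr1, a chemokine receptor, at 5.13, 0 and 9.08 in glioma and 9.65, 6.88 and 6.51 in normal libraries, and C1qa, a complement chain, at 5.25, 6.78 and 11.69 in glioma and 9.79, 3.42 and 0.22 in normal libraries. Single values in glioma replicate 3 were higher than any of Cx3cr1 for C1qc (10.98), C1qb (10.79), Fcer1g (10.68), Lyz2 (10.18), Tyrobp (9.89) and Mrc1 (9.78), named after their values were seen. C1qb, Fcer1g, Tyrobp and Mrc1 were at 0 in all 3 normal libraries. Ptprc, Itgam and Adgre1 of the same list were at 0 in glioma replicate 3. Of the 7 tested markers of the list, 3 had a difference above 0 and 4 below, with a median of -0.27. The part of microglia and macrophages in the collagen values was not tested.

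Type II collagen and its partners, a set chosen after the values were seen, had 6, 4 and 1 of 6 chains above 0 in glioma replicates 1, 2 and 3, and 0, 2 and 1 in normal replicates 1, 2 and 3. Type II collagen makes the fibrils of cartilage and of the vitreous body of the eye, with type XI chains in the fibril and type IX collagen on its surface. Col2a1 was at 10.35, 8.36 and 0 in glioma replicates 1, 2 and 3 and at 0 in all 3 normal libraries. Col9a1, the α1 chain of type IX, was at 9.47, 7.81 and 0 in glioma and at 0 in all 3 normal libraries. Col9a2, the α2 chain, was at 7.16, 7.35 and 0 in glioma and at 0, 2.84 and 0 in normal libraries. Col11a1 had 1 value, of 8.08, in glioma replicate 1. Col2a1 and Col9a1 had values in 2 libraries and were not tested.

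Col9a3, the α3 chain of type IX, was the third member whose groups did not overlap. It was at 5.89, 5.82 and 7.81 in glioma replicates 1, 2 and 3, and at 0, 2.84 and 0.42 in normal replicates 1, 2 and 3. Unlike Col9a1 and Col9a2, it was above 0 in glioma replicate 3 and highest there. The difference was 5.42 (SE 2.19, limma unadjusted p = 0.0362, adjusted p = 0.875). The values in glioma replicates 1 and 2 lay under 7.43, below what normal replicate 1 could show, and with the shared floor the groups overlapped and the difference was 0.13. Col9a3 also met the filter through its glioma libraries, so neither its p-value nor the gap between its groups is support for a difference. The last 234 bases of Col9a3 overlap Tcfl5 on the opposite strand, which was at 3.81, 0 and 0 in glioma and 0, 2.84 and 0.22 in normal libraries.

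**Figure D5:**
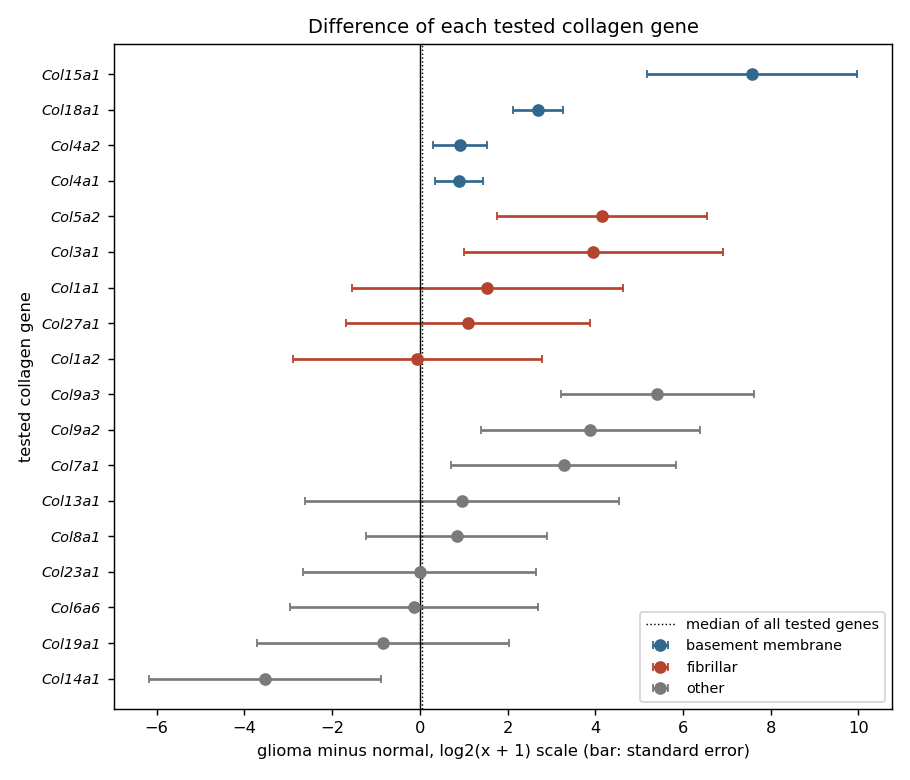
Difference, glioma minus normal, of the 18 tested collagen genes on the log2(x + 1) scale (points) with its standard error (bars), by class, and the median of all tested genes (dotted line at 0.05). Col18a1, Col15a1 and Col9a3 lie farthest from 0 relative to their standard errors. The 4 tested basement membrane members all lie above 0, and Col4a3 to Col4a6 of this class did not pass the filter and are not shown.

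The other collagens are a mixed class of transmembrane, network-forming, beaded and fibril-associated chains. The median difference of the 9 tested members was 0.84, with 6 above and 3 below 0, and it was -0.11 without normal replicate 1. Col13a1, a transmembrane collagen of cell adhesion sites, was the highest of the class, at 0, 10.20 and 11.16 in glioma replicates 1, 2 and 3, and at 0, 9.26 and 9.20 in normal replicates 1, 2 and 3. Replicate 1 of each group was at 0, and in the remaining libraries both glioma values lay above both normal values. Over all libraries the difference was 0.97 (SE 3.58, limma adjusted p = 0.965).

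Col7a1, the chain of the anchoring fibrils that tie epithelium to the dermis, was at 8.91, 5.47 and 6.32 in glioma and at 0, 5.70 and 5.17 in normal libraries (difference 3.28, SE 2.56, limma adjusted p = 0.875). Col14a1, a collagen on the surface of type I fibrils, was at 2.87, 7.08 and 0 in glioma and at 8.37, 5.40 and 6.78 in normal libraries. Its difference of -3.53 (SE 2.64, limma adjusted p = 0.875) was the lowest of all tested members, and the groups overlapped through glioma replicate 2. Type VI collagen, which forms beaded filaments around cells, was mostly seen in glioma replicate 1. There 4 of its 6 chains were above 0, with Col6a6 at 8.57, Col6a3 at 8.43, Col6a1 at 5.89 and Col6a2 at 2.87, while 0 chains were above 0 in glioma replicates 2 and 3. In normal replicate 1, Col6a3 was at 9.19 and Col6a4 at 8.67, and in normal replicates 2 and 3 only Col6a6 had a value, at 4.04 and 4.91.

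The rest of the class was seen in at most 4 libraries, with no groups apart among those tested. Col8a1, a short-chain collagen of vessel walls, was at 2.22, 0 and 5.98 in glioma replicates 1, 2 and 3, and at 0, 2.84 and 2.84 in normal replicates 1, 2 and 3 (difference 0.84, SE 2.06, limma adjusted p = 0.943). Col19a1, a fibril-associated collagen, was at 1.42, 0 and 5.22 in glioma and at 9.15, 0 and 0 in normal libraries, so its highest value was in normal replicate 1. Col23a1, a transmembrane collagen, was at 7.97, 0 and 0 in glioma and at 0, 5.02 and 2.94 in normal libraries. Among those not tested, Col26a1 was at 8.66 in glioma replicate 1 and at 0 elsewhere, and Col12a1 was at 1.81, 0 and 6.27 in glioma and at 0 in all 3 normal libraries. Col16a1 was at 4.97, 4.95 and 0 in glioma and at 0, 0 and 0.74 in normal libraries. Col17a1 had 1 value, of 4.26, in normal replicate 3, and Col8a2, Col22a1 and Col25a1 had values under 4 in glioma replicate 1 and in 1 normal library. Of the fibrillar class, Col5a1 was at 8.71, 0 and 0 in glioma and at 0, 2.84 and 0 in normal libraries, and Col11a2 had 1 value, of 0.42, in glioma replicate 1.

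Genes that fold, process, bind and break down collagen were read from the same fit. Of 20 tested members of the folding and secretion list, 0 passed the limma test, 4 had glioma libraries wholly above and 2 wholly below the normal libraries, beside 6.91% and 6.37% of all tested genes. With the shared floor, 3 were wholly above and 1 wholly below, beside 4.75% and 5.79% of the 10339 genes that did not become constant. The median difference was 0.74, against 0.05 over all tested genes. Serpinh1, the collagen chaperone HSP47, was at 14.28, 14.60 and 14.67 in glioma and at 13.53, 13.58 and 13.69 in normal libraries, a difference of 0.92 (SE 0.43, limma adjusted p = 0.875). P3h2, a prolyl hydroxylase that modifies type IV collagen, was listed at 0 in all 3 glioma libraries and at 7.43, 6.20 and 4.80 in the normal libraries. P3h2 passed the filter through the normal libraries alone, so the gap between its groups is no support for a difference. The same limit holds for its limma unadjusted p of 0.011 (adjusted p = 0.875). Glioma replicate 3 could not have shown a value under 5.22.

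Of 9 tested members of the processing and cross-linking list, 0 passed, and 2 were wholly above and 0 wholly below, beside 6.91% and 6.37% of all tested genes. The median difference was 2.51, against 0.05 over all tested genes. Pcolce, an enhancer of the enzyme that trims fibrillar procollagen, was at 7.71, 7.08 and 7.70 in the glioma libraries and listed at 0 in all 3 normal libraries (limma unadjusted p = 0.00562, adjusted p = 0.875). It passed the filter through the glioma libraries alone, so neither this p nor its place among those wholly above is support for a difference. Loxl2, an enzyme that cross-links type IV collagen, was at 9.29, 6.38 and 8.11 in glioma and at 0, 4.71 and 4.80 in normal libraries. With the shared floor of 7.43, neither gene kept its groups apart.

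Of 6 tested collagen receptors, 0 passed and 0 had groups that did not overlap, beside 6.91% of all tested genes wholly above and 6.37% wholly below. Ddr2, a receptor kinase for fibrillar collagen, was at 6.89, 4.87 and 8.84 in glioma and at 0, 5.04 and 5.78 in normal libraries, and Itgb1, the β1 integrin chain, was at 10.72, 12.27 and 12.33 in glioma and at 10.96, 11.23 and 11.10 in normal libraries. Of the 2 tested collagenases, Mmp14, a membrane-bound collagenase, was at 11.71, 10.70 and 11.35 in glioma and at 13.40, 7.74 and 7.14 in normal libraries. Mmp15 was at 7.16, 8.79 and 8.92 in glioma and at 8.76, 9.53 and 9.36 in normal libraries.

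The 13 tested basement membrane partners held 0 that passed and 0 whose groups did not overlap, beside 6.91% of all tested genes wholly above and 6.37% wholly below. At a limma unadjusted p under 0.05, 1 was higher in glioma, Lamb1, beside 2.35% of all tested genes. The median difference was 1.36, against 0.05 over all tested genes. Lamb1, a laminin chain, was at 9.67, 10.0 and 10.2 in glioma and at 9.68, 6.60 and 6.55 in normal libraries, so normal replicate 1 stood with the glioma libraries as it did for Col4a1 and Col4a2. Hspg2, the perlecan gene, was at 13.67, 13.42 and 11.83 in glioma and at 14.39, 11.81 and 12.13 in normal libraries. Nid1, the nidogen that bridges laminin and type IV collagen, was at 10.03, 11.30 and 10.25 in glioma and at 11.44, 7.30 and 7.88 in normal libraries. Hspg2 and Nid1, chosen after their values were seen, had their highest value in normal replicate 1. Lama5, another laminin chain, was at 6.41, 8.79 and 5.97 in glioma and at 8.38, 9.80 and 9.79 in normal libraries, with its highest values in normal replicates 2 and 3.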

How the data were processed

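The deposited files gave 1 log2 value for each of 24421 gene symbols in each of 6 libraries. Trizol served for RNA extraction and a Lexogen QuantSeq kit for library preparation, per the labels' protocols. Per the submitters' processing notes, Bowtie2, edgeR and mm10 were used, with no role or version stated. For counting, strand use, annotation and normalization, the tool or setting is not given in the sources used here. All libraries have the same highest value, and back-transformed non-zero values are whole multiples of 1 divided by 6 within 0.02, so the deposited log2 values were read as log2(x + 1) of quantile-normalized values. They keep no depth, and no count model or count interval can be used.

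Groups and replicate numbers came from the sample titles, from which some column headers differ. Differences were tested with limma 3.58.1 (R 4.3.3) with a mean trend and group as the only term, over 11862 genes with x of at least 1 in at least 3 libraries, and p-values were adjusted over all of them with a threshold of 0.05. The fit was tested on simulated data, where the pass mark was set only for a small spread. That check does not measure the power of the fit in these libraries. Lists were described by counts and medians without a set test. Members, classes, lists and tests were chosen with earlier results of these data known. Values are given for the 4 highest tested members of each class, for all members whose groups did not overlap, for all basement membrane members, and for the 2 members with the smallest p of each pathway list. Marker lists, described by the number above 0 and the summed share, covered endothelium, fibroblasts, mural cells, microglia and macrophages, astrocytes, neurons, glioma cells or neural progenitors, and erythroid cells, with the 2 members of highest mean log2 value (0 counted) of each named. A further marker list is not reported here. Fits with a library left out, with the floor or on replicates 2 and 3 used the same genes except those that became constant. Alternatives were a shared floor at 7.43 (the highest of the libraries' lowest values above 0), a pseudocount of 32, other filters, no trend, a replicate block, each library left out, and replicates 2 and 3 alone. Positions are from GENCODE M21 and promoter sequences from RefSeq, both on GRCm38, the assembly of mm10.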

Additional observations from a re-analysis of the deposited data

How the results depend on the processing

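No tested collagen gene passed the adjusted threshold under any alternative run. Without a trend in the variance prior, 15 genes passed over all genes, none of them a collagen. The count of genes at an unadjusted p under 0.05 was 313 to 1204 with each library left out, the highest without normal replicate 1, and 2449 with replicates 2 and 3 of each group alone. That pair-only comparison gave 8 collagens at an unadjusted p under 0.05, 6 wholly above and 2 wholly below, beside 24.6% and 30.9% of all genes. Among genes above 0 in all 6 libraries, 1 collagen, Col18a1, was wholly above and at an unadjusted p under 0.05. Leaving out each library gave 2 to 5 collagens at an unadjusted p under 0.05 (all genes 2.64% to 10.2%), 3 to 8 wholly above (7.76% to 15%) and 0 to 1 wholly below (7.22% to 20.7%). With the shared floor, Col18a1 and Col15a1 were wholly above. A member that is wholly above over all libraries must stay so when a library is left out. That Col18a1, Col15a1 and Col9a3 did so is therefore no added support, and these counts could only stay or rise. Without normal replicate 1 the median difference of all genes was -0.35, against 0.05 over all libraries.

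The basement membrane median of 1.81 was 1.37 with the shared floor, 0.91 with no filter and 0.92 over genes above 0 in all 6 libraries, and 1.75 to 1.95 with each library left out. The fibrillar median ranged from -0.02 without glioma replicate 1 to 3.62 without glioma replicate 3, and that of the other collagens from -0.11 to 1.33.

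Of 18 tested collagens, 10 kept their direction throughout. Among them were Col4a1 and Col4a2, and also Col15a1, Col18a1 and Col9a3, whose separate groups cannot turn when a library is left out. The remaining tested collagens turned with at least 1 library left out, and the cause was not tested. Their differences ranged from -2.11 to 4.53 for Col13a1, -2.37 to 2.21 for Col19a1, -0.56 to 4.15 for Col1a1, -2.34 to 3.12 for Col1a2, -2.65 to 1.33 for Col23a1, -0.55 to 3.27 for Col27a1, -2.99 to 1.30 for Col6a6 and -0.78 to 2.21 for Col8a1. With the shared floor, the difference was 1.41 for Col1a2 and 0.38 for Col6a6, and with a pseudocount of 32 it was 1.18 and 0.72. With replicates 2 and 3 alone it was 2.61 for Col19a1, -3.98 for Col23a1 and -1.66 for Col27a1.

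With the replicate number as a block, the differences did not move, 0 genes passed and 2 collagens, Col18a1 and Col15a1, were at an unadjusted p under 0.05. Deviations of same-numbered libraries correlated at 0.131, 0.027 and 0.062. Glioma replicate 2 correlated better with normal replicate 3 (0.085), and glioma replicate 3 with normal replicate 2 (0.074). Glioma replicate 1 correlated at -0.101 and -0.140 with normal replicates 2 and 3. Whether same-numbered libraries share more than a number cannot be told from these values.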

Other observations

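Further genes of cartilage matrix were looked up after the values of Col2a1 and the type IX chains had been seen, and are given as values. Sox6, a transcription factor that takes part in cartilage formation and in oligodendrocyte development, was at 11.04, 10.95 and 0 in glioma replicates 1, 2 and 3 and at 0, 4.13 and 0.58 in normal replicates 1, 2 and 3, with values in the same glioma libraries as Col2a1 and Col9a1. Sox9, an activator of Col2a1 in cartilage, was at 11.80, 8.26 and 6.76 in glioma and at 9.49, 9.90 and 9.71 in normal libraries. Hapln1, a link protein, was at 9.79, 0 and 5.90 in glioma and at 0 in all 3 normal libraries. Acan, the aggrecan gene, was at 0, 0 and 7.60 in glioma and at 0, 0 and 1.74 in normal libraries. Comp, Matn3 and Chad were listed at 0 in every library. Of 12 genes looked up, 8, 3 and 4 were above 0 in glioma replicates 1, 2 and 3, and 2, 5 and 6 in normal replicates 1, 2 and 3.

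Markers of other cell types were above 0 in both groups. They numbered 4 to 6 of 8 for astrocytes in glioma and 4 to 7 in normal libraries, led by Slc1a2 and Gja1, and 2 to 7 of 7 for neurons in glioma and 3 to 7 in normal libraries, led by Map2 and Stmn2. All 5 erythroid markers were above 0 in each glioma library, and 4 to 5 in normal libraries, led by Hba-a1 and Hba-a2, near-identical genes with equal values. Glioma replicate 1, which held the most collagens, also held the largest erythroid share, 2.42% of its summed values.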
